A study of Mus musculus with 4 samples.

Results

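The genes described here are 48 components of the Wnt pathway, taken by symbol: 19 Wnt ligands, 12 receptors and co-receptors, 9 antagonists, 3 members of the beta-catenin destruction complex and 5 nuclear effectors. Of these, 47 were measured, each by 1 probe set annotated to that gene alone, among 18820 genes of the whole array. The effector Tcf7 had no such probe set and was not analysed here. The arrays compared mouse embryonic stem cells of wild-type genotype with cells labelled KAP1 fl/fl knockout, in which Trim28, the gene of the co-repressor KAP1 (also named TIF1beta), was to be deleted. There were 2 biological replicates per group and 1 Affymetrix Mouse Gene ST 1.1 array per sample. All 4 samples carry the label 4-OH-tamoxifen, the drug that triggers the conditional deletion, and all were grown on irradiated mouse embryonic fibroblasts. The source of the Cre recombinase, the number of clones and any step to remove the feeder cells are not given in the sources used here, nor is it settled whether the wild-type cells are the same line before deletion. Line, clone and loss of Trim28 therefore cannot be told apart for any gene below.

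Wnt proteins are lipid-modified secreted signals that bind a frizzled receptor together with the co-receptor Lrp5 or Lrp6. Binding stops the destruction complex, built on Axin and Apc, from degrading beta-catenin (Ctnnb1), which then enters the nucleus and works with the DNA-binding factors Lef1, Tcf7, Tcf7l1 and Tcf7l2. In embryonic stem cells Tcf7l1 acts mainly as a repressor of pluripotency genes, beta-catenin relieves that repression, and Wnt3 is the ligand known for primitive streak formation. Axin2, Nkd1, Lef1 and Sp5 are widely used readouts of the pathway because beta-catenin induces them in many tissues.

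Across the pathway, 22 of the 47 measured genes were higher in the knockout at an adjusted p under 0.05 in limma (46.8%), and 6 were lower (12.8%). Among all 18820 genes 14.2% were higher and 12.7% lower, 26.9% in all, so the share of lower members was near that of the array and the share of higher members was above it. A rise of at least 2-fold was found for 12 members (25.5%, against 4.44% of all genes) and a fall of that size for 2 (4.26%, against 1.46%). Of all the genes called, 52.8% were higher, against 24.4% with array medians subtracted. The median change of the members was 0.34 on the log2 scale, and that of all genes was -0.05. Largest among the members were the rises of the ligand Wnt3, the receptor Fzd2, the feedback inhibitor Axin2, the ligand Wnt8a and the effector Lef1, and the falls of the secreted antagonist Sfrp1 and the receptor Fzd5. Beta-catenin itself and the scaffolds Axin1 and Apc had changes between -0.09 and -0.02, none past the threshold.

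All values are log2 array signals, so that 1 unit is a 2-fold difference, and they compare the same probe set between samples, not one gene with another. The knockout was checked on Trim28, which read 11.29 and 11.37 in wild-type cells, against 8.97 and 8.92 in knockout cells, a fall by 2.38 (SE 0.09, limma adjusted p = 3.39e-05). The array has no counts, and the number of arrays limits its precision. Signal over background is unknown, and 3 ligands (Wnt1, Wnt2 and Wnt8b) lay below the lower quartile of all genes (3.80) in both groups. Below the median of all genes (5.57) in both groups lay 19 of the 47 members, 13 of them ligands. The called ligands among them were Wnt2b, Wnt3a, Wnt4, Wnt5a and Wnt7a. Each p-value sets a change against the spread between replicate samples, with that spread moderated towards that of all genes.

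**Figure D1:**
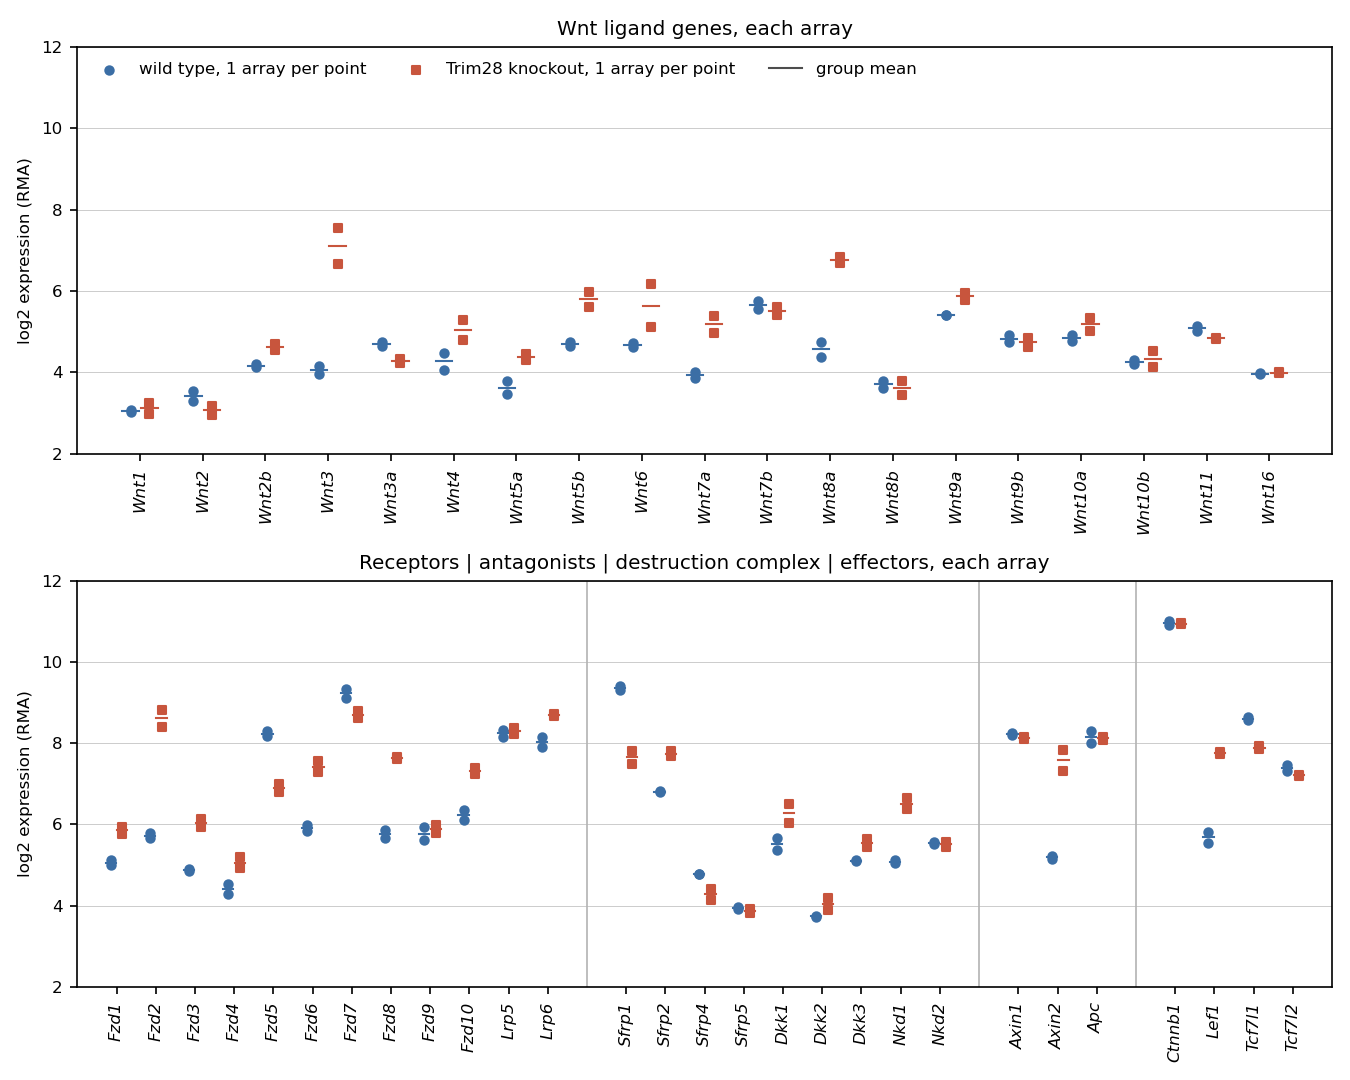
Log2 expression (RMA) of each measured Wnt pathway gene on each of the 4 arrays: circles are the 2 wild-type arrays, squares the 2 knockout arrays and short lines the group means. Wnt3, Wnt8a, Fzd2, Axin2 and Lef1 stand clearly apart between groups, while the groups lie close together for Ctnnb1, Axin1 and Apc.

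Of the 19 ligand genes 8 rose (42.1%), 1 fell (5.26%) and 10 did not pass, with a median change of 0.34. Over all genes 14.2% rose and 12.7% fell. Wnt3 read 3.95 and 4.15 in wild-type cells, against 6.66 and 7.54 in knockout cells. Both knockout values lay far above the wild-type values, although the knockout samples differed from each other by more than the wild-type ones. The mean went from 4.05 ± 0.14 to 7.10 ± 0.62 (SD, n = 2 each), an 8.28-fold rise (log2 3.05, SE 0.26, adjusted p = 4.19e-04). Wnt8a, a ligand of the early streak and posterior embryo, read 4.38 and 4.74 against 6.69 and 6.84, with no overlap and a tight knockout pair (log2 2.20, SE 0.14, adjusted p = 1.34e-04, 4.61-fold).

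Wnt7a, best known from dorsal limb and reproductive tract patterning, read 3.86 and 4.01 in wild-type cells, against 4.97 and 5.39 in knockout cells (log2 1.25, SE 0.15, adjusted p = 0.00149). Wnt5b, a ligand mostly tied to beta-catenin-independent signalling, read 4.64 and 4.74 against 5.62 and 5.96 (log2 1.10, SE 0.13, adjusted p = 0.00148). In both genes the groups were clear of each other, and the knockout levels stayed near or below 6.

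Smaller rises were found for Wnt4 (0.76, adjusted p = 0.0303), Wnt5a (0.74, 0.00639), Wnt9a (0.46, 0.0149) and Wnt2b (0.46, 0.0142). Wnt5a is the main non-canonical ligand, and Wnt4 is needed in kidney and gonad development. The single ligand that fell was Wnt3a, the closest paralog of Wnt3 and a standard ligand for stem cell culture, which read 4.74 and 4.65 against 4.23 and 4.33 (log2 -0.42, adjusted p = 0.0184). Its change was thus opposite in sign to that of Wnt3, each by its own test.

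These 5 smaller changes depended on single arrays. Leaving out wild-type replicate 1 raised the adjusted p to 0.0640 for Wnt2b, 0.105 for Wnt3a, 0.195 for Wnt4 and 0.0859 for Wnt9a. Leaving out wild-type replicate 2 raised it to 0.0970, 0.0705, 0.0653 and 0.0907 for the same genes and to 0.0505 for Wnt5a. Without knockout replicate 1 it was 0.0759 for Wnt3a, and without knockout replicate 2 it was 0.0685 for Wnt2b, 0.0908 for Wnt4 and 0.0731 for Wnt9a. Wnt2b and Wnt9a also missed the threshold with array medians subtracted (0.0565 and 0.0569), a scaling that lowers every change by 0.17, and Wnt9a did so under quantile normalization (0.0890). The calls for Wnt3, Wnt8a, Wnt7a and Wnt5b held without any 1 of the arrays.

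Wnt6 had the largest change among ligands that did not pass, and its knockout samples disagreed. It read 4.61 and 4.72 in wild-type cells, against 5.11 and 6.17 in knockout cells (log2 0.97, SE 0.31, adjusted p = 0.0578). Both knockout values were above the wild-type ones, and without knockout replicate 1 the change was 1.50 with an adjusted p of 1.65e-04. Wnt10a, its neighbour, had a change of 0.34 (adjusted p = 0.102), which passed at 0.0323 without knockout replicate 1. The other 8 ligands lay between -0.35 (Wnt2) and 0.07 (Wnt10b). They were Wnt1 (0.06), Wnt7b (-0.15), Wnt8b (-0.10), Wnt9b (-0.08), Wnt11 (-0.25) and Wnt16 (0.02), beside Wnt2 and Wnt10b. With array medians subtracted Wnt2 and Wnt11 passed as lower (adjusted p = 0.0164 and 0.0122), and Wnt11 also did after quantile normalization (0.0273).

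Several Wnt genes sit side by side in the genome, a very old arrangement. Wnt3 and Wnt9b are adjacent on chromosome 11 with 0 protein-coding genes between them, by the RefSeq annotation of GRCm38.p6. Wnt3 rose by 3.05 while Wnt9b read 4.73 and 4.90 against 4.63 and 4.85, overlapping values with a change of -0.08 (95% confidence interval -0.35 to 0.20). Wnt3a and Wnt9a, adjacent elsewhere on chromosome 11, changed by -0.42 and 0.46. Wnt1 and Wnt10b, a pair on chromosome 15, changed by 0.06 and 0.07, and the chromosome 1 pair Wnt6 and Wnt10a by 0.97 and 0.34.

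Promoter sequences are shown for 4 members on which these results turn: the adjacent pair Wnt3 and Wnt9b, of which only Wnt3 passed the test, and the feedback genes Axin2 and Dkk1. They are the 250 bases before the start site in RefSeq on GRCm38.p6, written 5′ to 3′ on the gene's strand. Capitals mark the letters of the TCF/LEF recognition motif. The windows are chr11:103773925-103774174 (plus strand) for Wnt3, chr11:103749822-103750071 (minus strand) for Wnt9b, chr11:108920099-108920348 (plus strand) for Axin2 and chr19:30549497-30549746 (minus strand) for Dkk1.
Wnt3: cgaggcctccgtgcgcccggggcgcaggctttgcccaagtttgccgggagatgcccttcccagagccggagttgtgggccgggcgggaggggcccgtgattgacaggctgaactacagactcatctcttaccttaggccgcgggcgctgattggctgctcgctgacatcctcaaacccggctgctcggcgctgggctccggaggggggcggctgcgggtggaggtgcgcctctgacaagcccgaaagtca
Wnt9b: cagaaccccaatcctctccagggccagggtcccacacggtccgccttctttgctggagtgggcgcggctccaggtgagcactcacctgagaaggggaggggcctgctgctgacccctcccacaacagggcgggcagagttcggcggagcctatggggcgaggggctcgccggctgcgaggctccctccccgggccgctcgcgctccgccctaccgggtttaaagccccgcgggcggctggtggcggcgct
Axin2: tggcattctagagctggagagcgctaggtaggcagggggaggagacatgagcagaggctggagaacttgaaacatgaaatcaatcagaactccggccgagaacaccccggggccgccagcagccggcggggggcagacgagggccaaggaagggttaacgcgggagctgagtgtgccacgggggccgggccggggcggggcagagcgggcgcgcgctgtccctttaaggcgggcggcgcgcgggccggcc
Dkk1: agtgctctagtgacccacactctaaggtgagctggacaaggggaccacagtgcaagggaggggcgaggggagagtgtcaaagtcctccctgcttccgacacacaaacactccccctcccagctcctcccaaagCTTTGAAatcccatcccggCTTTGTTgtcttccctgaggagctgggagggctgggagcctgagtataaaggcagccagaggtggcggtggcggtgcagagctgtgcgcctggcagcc

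The motif was searched as CTTTGAA, its variant CTTTGAT, the spelling CTTTGTA or the spelling CTTTGTT on both strands, in windows from 250 bases before to 50 after each start. The 4 spellings share their first letters, and no other motif was searched. Dkk1 held 2 matches, CTTTGAA at bases 134 to 140 and CTTTGTT at bases 153 to 159 of its window. Wnt3 held 1, CTTTGTT at bases 269 to 275, which lies past the start site and outside the stretch shown, and the windows of Wnt9b and Axin2 held 0. RefSeq windows were found for 33 of the 48 genes. Of 14 with a window among the members that rose, 4 held a match (Dkk1, Lef1, Wnt3 and Wnt5b), against 1 of 4 among those that fell (Fzd7) and 2 of 14 among those not called (Tcf7l2 and Wnt11). Counted by window, 16.7% of 42 member windows and 16.9% of all 32851 windows held the motif, so the letters were no more common here than elsewhere. The member windows did hold more CG dinucleotides, with a median of 26 against 7 over all windows. Of the windows printed, Axin2 held 31 CG, Wnt9b 29, Wnt3 24 and Dkk1 9, counted from the window start to the 50th base after the start site.

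Of 12 frizzled and Lrp genes 8 rose (66.7%) and 2 fell (16.7%), against 14.2% and 12.7% of all genes. Their median change was 0.73, and 5 of the rises and 1 of the falls were at least 2-fold. Neither subtracting array medians nor quantile normalization moved this count. The frizzled genes are taken below in 4 known subfamilies, which were not derived from these data. Of these, 2 held members that rose and members that fell.

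In the Fzd1, Fzd2 and Fzd7 group, Fzd2 read 5.66 and 5.79 in wild-type cells, against 8.41 and 8.82 in knockout cells, the largest receptor change (log2 2.89, SE 0.15, adjusted p = 7.18e-05, 7.42-fold). Fzd1 rose by 0.80 (adjusted p = 0.00218). Fzd7, the frizzled best known for maintaining stem cells, read 9.34 and 9.11 against 8.79 and 8.61 and fell by 0.52 (SE 0.12, adjusted p = 0.0188). Fzd7 thus went down where its relatives went up, without overlap between groups. Its call was lost without wild-type replicate 1 (adjusted p = 0.118) and without knockout replicate 2 (0.0758).

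In the Fzd5 and Fzd8 group the directions were also opposite. Fzd5, a receptor needed for yolk sac and placental vessels, read 8.29 and 8.18 in wild-type cells, against 7.00 and 6.80 in knockout cells (log2 -1.34, SE 0.11, adjusted p = 3.18e-04, 2.53-fold lower). Fzd8 read 5.85 and 5.66 against 7.60 and 7.66 (log2 1.88, SE 0.10, adjusted p = 9.33e-05, 3.67-fold higher). Neither pair of groups came near to overlapping. Since the probe sets differ, these values do not say which of the receptors was more abundant.

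Fzd3 and Fzd6, receptors best known from planar cell polarity, both rose. Fzd6 read 5.85 and 5.98 against 7.28 and 7.55 (log2 1.50, SE 0.12, adjusted p = 3.24e-04). Fzd3 read 4.87 and 4.91 against 5.94 and 6.14 (log2 1.15, SE 0.10, adjusted p = 4.92e-04). Fzd3 lies among genes that were higher together, as described further on.

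In the Fzd4, Fzd9 and Fzd10 group, Fzd10 read 6.12 and 6.35 against 7.23 and 7.38 (log2 1.07, SE 0.12, adjusted p = 9.66e-04). Fzd4, the Norrin receptor of retinal vessels, rose by 0.64 (adjusted p = 0.0135; 0.108 without wild-type replicate 2), and Fzd9 had a change of 0.12 (adjusted p = 0.595) with overlapping groups. The co-receptor Lrp6 read 8.15 and 7.91 against 8.72 and 8.67, a rise by 0.66 (SE 0.11, adjusted p = 0.00551). Its partner Lrp5 read 8.33 and 8.15 against 8.37 and 8.23, a change of 0.06 (95% confidence interval -0.19 to 0.31).

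**Figure D2:**
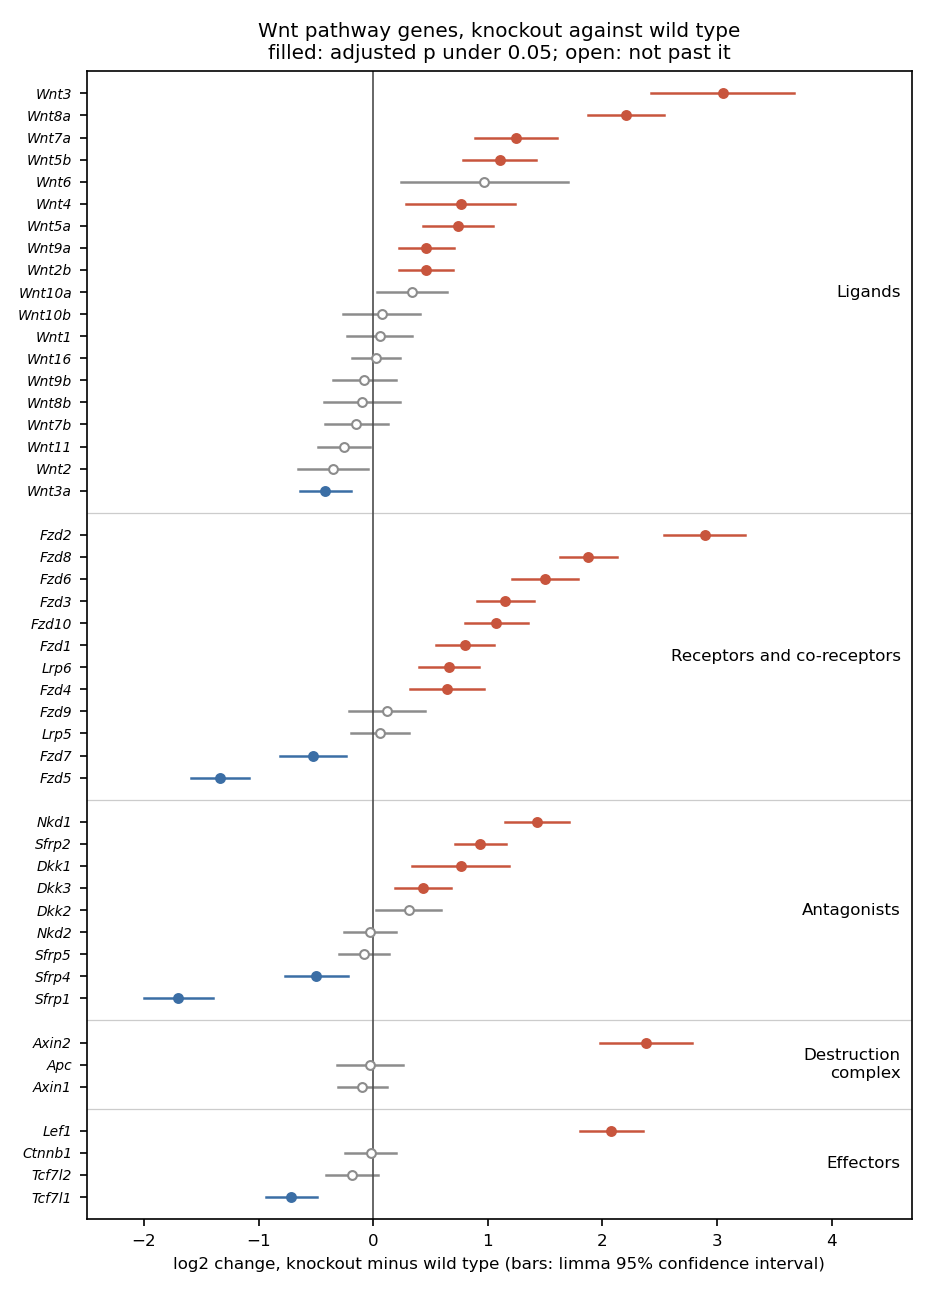
Log2 change (knockout minus wild type) of the 47 measured members, grouped by role, with limma 95% confidence intervals as bars; filled points passed an adjusted p of 0.05 and open points did not. Receptors lie mostly to the right of 0 with Fzd5 and Fzd7 to the left, and Axin2 and Lef1 stand apart from Axin1, Apc, Ctnnb1 and Tcf7l2.

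Among the 9 antagonists 4 rose (44.4%) and 2 fell (22.2%), against 14.2% and 12.7% of all genes. The secreted frizzled-related proteins went both ways. Sfrp1, which binds Wnt ligands outside the cell, read 9.40 and 9.30 in wild-type cells, against 7.80 and 7.50 in knockout cells. Its groups were far apart, with a fall by 1.70 on the log2 scale (SE 0.13, adjusted p = 2.26e-04), 3.25-fold lower. Sfrp2, of the same family, read 6.80 and 6.82 against 7.68 and 7.80 (log2 0.93, SE 0.09, adjusted p = 7.43e-04). Sfrp4 fell by 0.50 (adjusted p = 0.0197) and Sfrp5 had a change of -0.08 (adjusted p = 0.566).

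The Dickkopf proteins Dkk1 and Dkk2 act on Lrp5 and Lrp6, while Dkk3 is a divergent relative. Dkk1 read 5.36 and 5.67 in wild-type cells, against 6.05 and 6.51 in knockout cells (log2 0.76, SE 0.18, adjusted p = 0.0202). The groups did not overlap, but the spread within each was wide next to the change. Dkk3 rose by 0.44 (adjusted p = 0.0213), and Dkk2 had a change of 0.31 (adjusted p = 0.104; 0.0382 without knockout replicate 2).

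Nkd1 and Nkd2 are intracellular inhibitors that bind Dishevelled. Nkd1, the one induced by beta-catenin, read 5.05 and 5.12 against 6.38 and 6.65, with no overlap (log2 1.43, SE 0.12, adjusted p = 3.52e-04, 2.69-fold). Nkd2 read 5.56 and 5.53 against 5.57 and 5.45, a change of -0.03 with overlapping groups. Only 1 of the naked cuticle genes thus passed the test. Of the antagonist calls, Sfrp1, Sfrp2 and Nkd1 held without any 1 of the arrays. Without wild-type replicate 1 the adjusted p was 0.116 for Sfrp4, 0.154 for Dkk1 and 0.115 for Dkk3, and without wild-type replicate 2 it was 0.110, 0.0682 and 0.103. Without knockout replicate 1 it was 0.0759 for Sfrp4, and without knockout replicate 2 it was 0.0536 for Dkk1 and 0.103 for Dkk3. Dkk3 also missed the threshold with array medians subtracted (0.0799) and under quantile normalization (0.107).

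In the destruction complex 1 of 3 genes changed, too few to set against the 26.9% of all genes called. Axin2, the inducible scaffold that limits the signal by feedback, read 5.23 and 5.16 in wild-type cells, against 7.32 and 7.84 in knockout cells, from 5.19 ± 0.06 to 7.58 ± 0.37 (SD, n = 2 each; log2 2.38, SE 0.17, adjusted p = 2.04e-04, 5.21-fold). Both knockout samples were more than 2 units above both wild-type samples. Axin1, the constitutive scaffold, read 8.24 and 8.21 against 8.15 and 8.10, a change of -0.09 (95% confidence interval -0.31 to 0.12). Apc, which binds beta-catenin in the complex, had a change of -0.03 (-0.32 to 0.26) with overlapping groups.

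Of the 4 effectors measured, 1 rose and 1 fell, too few genes to set against the shares of all genes (14.2% and 12.7%). Lef1, the LEF/TCF factor most often tied to activation, read 5.81 and 5.55 in wild-type cells, against 7.78 and 7.74 in knockout cells (log2 2.08, SE 0.11, adjusted p = 9.14e-05, 4.22-fold). The knockout samples agreed within 0.04 of each other, and no value overlapped. Tcf7l1, the repressor, read 8.65 and 8.56 against 7.92 and 7.86, a fall by 0.72 (SE 0.09, adjusted p = 0.00203). Both calls held without any 1 of the arrays.

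Ctnnb1 transcripts read 11.01 and 10.90 against 10.95 and 10.92, so the knockout values lay within the wild-type range, and the change was -0.02 (95% confidence interval -0.24 to 0.20). Beta-catenin is controlled mainly through the stability of its protein, which an array does not measure. Tcf7l2 had a change of -0.18 (adjusted p = 0.213); with array medians subtracted it passed as lower (-0.35, adjusted p = 0.0274).

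The rest of the pathway was read from 8 lists of genes outside the 48, which hold 118 genes, 112 of them measured. All 8 were drawn up with earlier results of these data known, so they are not independent evidence of a direction. Over the whole array 14.2% of genes rose and 12.7% fell, shares to set beside this count and each list count below. Of the 112 measured genes 41 rose, a share above that of the array, and 16 fell, a share near it. Their median change was 0.11. With any 1 array left out fewer genes passed, over these lists together as over the whole array. List counts below with an array left out are to be read beside that wider loss of calls. Subtracting array medians gave 32 higher and 31 lower. The balance of directions over these lists thus depends on the scaling, as does that of all genes. With array medians subtracted 2065 of all 18820 genes were higher and 6392 lower, with a median change of -0.22. Higher calls were then 24.4% of the calls over all genes, a smaller part than in these lists. Under the same scaling 19 of the 47 measured members rose and 9 fell.

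In the list of ligand secretion and modification 5 of 9 genes rose and 1 fell. Besides Porcn and Wls it holds glypican and sulfatase genes, Notum, Trabd2b and Ndp. The count is thus not limited to genes that make or release ligands. Wls, which carries Wnt proteins to the cell surface, read 6.14 and 6.02 against 7.92 and 8.75 (log2 2.26, adjusted p = 9.78e-04), with the knockout samples well above the wild type. The sulfatase gene Sulf1 rose by 1.35 and the glypican gene Gpc3 by 1.09, while Porcn, the enzyme that attaches the lipid, fell by 0.66 (adjusted p = 0.0108; 0.0800 and 0.0930 when wild-type replicates 1 and 2 were left out in turn). Among R-spondins, their receptors and the ligases they restrain, 3 of 9 rose, led by Rspo3 (1.50), a secreted enhancer of Wnt signals. Without wild-type replicate 2 the ligand list gave 3 higher and 0 lower, and without wild-type replicate 1 or knockout replicate 2 the R-spondin list gave 2 higher.

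Other secreted or surface inhibitors rose in 6 of 15 cases and fell in 1, with Igfbp4 (2.82) and the membrane protein gene Tpbg (2.56) ahead. In the list of non-canonical receptors and planar polarity 5 of 15 rose and 2 fell. Prickle1 rose by 1.74, and Celsr1, an atypical cadherin of planar polarity, read 6.98 and 6.95 against 6.06 and 5.59 and fell by 1.14. With array medians subtracted, when lower calls outnumbered higher ones over the whole array, that list gave 4 higher and 5 lower. The inhibitor list gave 4 higher without either wild-type replicate.

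Of 23 cytoplasmic genes 6 rose and 2 fell, none by 1 unit or more. With array medians subtracted, when 2065 of all 18820 genes were higher and 6392 lower, the counts were 1 and 8. The rises went to 0 without either wild-type replicate and to 1 without knockout replicate 2. Of 12 nuclear cofactors 5 rose and 1 fell, none by 1 unit or more, and subtracting array medians gave 4 and 4. Leaving out wild-type replicate 1 left 1 rise, and leaving out the second replicate of either group left 3.

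Genes known as beta-catenin/TCF targets, outside the 48, rose in 12 of 23 measured cases and fell in 1, with a median change of 0.49. The death receptor relative Tnfrsf19 read 4.99 and 5.02 against 7.87 and 8.35 (log2 3.11, adjusted p = 7.10e-05). Sp5, a zinc finger factor induced by Wnt in many embryonic tissues, read 4.65 and 4.77 against 6.63 and 7.70 (log2 2.46, adjusted p = 0.00175). Both were well above the wild type in each knockout sample.

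Ccnd2 (1.89), Jun (1.84), Cdx4 (1.11) and Plaur (1.04) rose next, while the target that fell was Gbx2 (-0.96), a homeobox gene. Not every target moved: Myc had a change of 0.03, Rnf43 of 0.01, Ccnd1 of 0.45 and Notum of -0.36, none past the threshold. Jun lost its call without wild-type replicate 2 (adjusted p = 0.122), as did Plaur (0.114; 0.0502 without wild-type replicate 1). The count of rises was 7 without wild-type replicate 2 and 11 with array medians subtracted. The list was drawn up with earlier results of these data known, so it is not independent evidence of a direction.

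Of 11 measured genes known to be repressed by Tcf7l1 in stem cells, 8 fell and 1 rose, with a median change of -1.11. Over all genes 12.7% fell. Like the others, this list was drawn up with earlier results of these data known, so its count is not independent evidence of a direction. Nanog, Esrrb and Klf4, which fell, are also among the stem cell markers below, so the counts of falls in the lists are not separate. Tbx3, a factor of the naive stem cell state, read 9.71 and 9.76 against 7.62 and 7.53 (log2 -2.16, adjusted p = 4.52e-05). Tcl1 (-2.02), Klf4 (-1.34), Tfcp2l1 (-1.32), Nr5a2 (-1.11) and Esrrb (-1.11) fell next, and Dppa3 rose by 1.49. Klf2 (-0.09) and Mycn (0.13) did not pass. The count of falls was 3 and 4 when wild-type replicates 1 and 2, respectively, were left out. Without these, in turn, the adjusted p was 0.0561 and 0.0531 for Tcl1 and 0.0581 and 0.0655 for Esrrb. Klf4 lost its call in both cases too, at 0.0747 in the second.

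**Figure D3:**
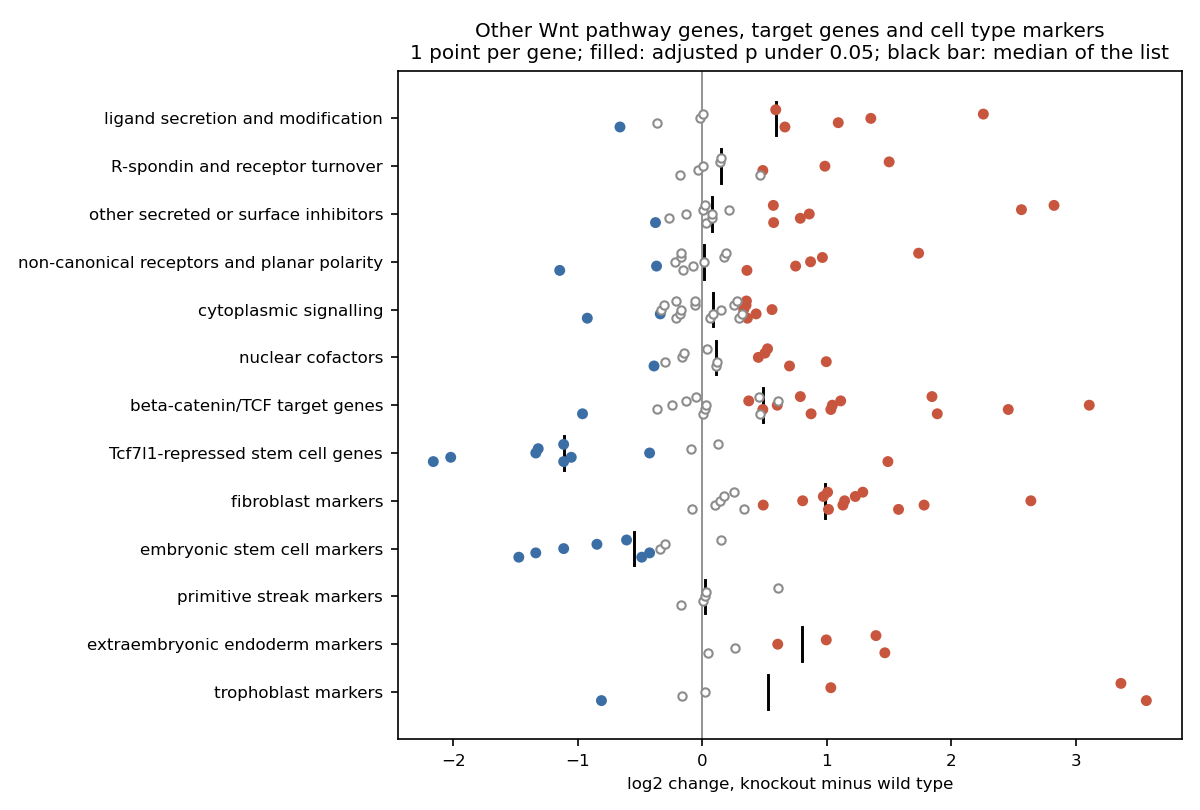
Log2 change (knockout minus wild type) of genes in 8 further Wnt pathway lists and 5 cell type marker lists. A gene held by several lists has 1 point in each. Filled points passed an adjusted p of 0.05, open points did not, and black bars are list medians. Target genes and fibroblast markers lie mostly to the right of 0, and genes repressed by Tcf7l1 and stem cell markers to the left.

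Markers of cell types moved between the same groups, in which 14.2% of all genes rose and 12.7% fell. Stem cell markers all had mean levels no lower than the median of all genes (5.57). Of these 7 of 10 fell, and most of these calls were lost when either wild-type replicate was left out. Dppa5a (adjusted p = 0.0554), Utf1 (0.119) and Tdgf1 (0.342) did not pass in limma. The summed linear signal of all 10 stem cell markers, to which bright probe sets add most, was 17396 and 17116 in wild-type cells. In knockout cells it was 13340 and 11381. Of 18 fibroblast markers 12 rose, and their summed linear signal was 674 and 600.0 in wild-type cells, against 1346 and 1362 in knockout cells. Among the largest rises, Dcn read 3.55 and 3.25 against 5.56 and 6.51, and Col1a1 6.13 and 5.63 against 7.75 and 7.57. Fap (-0.08), Lum (0.18), Thy1 (0.25) and Loxl1 (0.34) did not pass in limma. Neither did Ddr2 (adjusted p = 0.406) and S100a4 (0.765). Of the extraembryonic endoderm markers 4 of 6 rose, or 2 without wild-type replicate 2 (sums 401 and 405 against 709 and 812), and of the trophoblast markers 3 of 6 rose and 1 fell (844 and 902 against 4389 and 5207). The keratins Krt8 (3.56) and Krt18 (3.36), which other epithelia also express, carried that sum. The other 4 trophoblast markers summed to 476 and 469 in wild-type cells, against 361 and 336 in knockout cells; Cdx2 rose by 1.03, Tfap2c fell by 0.81, and Elf5 (-0.16) and Eomes (0.02) did not pass. No marker is at 0, since an array gives every probe set a value.

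The primitive streak markers other than T, which was not analysed here, were 5 in number (Mixl1, Eomes, Gsc, Mesp1 and Tbx6). None passed in limma, 1 (Mixl1) had an unadjusted p under 0.05, and their sums were 181 and 174 in wild-type cells, against 173 and 213 in knockout cells. Mixl1 had the largest change, 0.61 (adjusted p = 0.0797), and it passed as higher without knockout replicate 1. In bulk RNA, a change in the share of cells and a change of RNA per cell cannot be told apart. The part that other cell types have in the changes of the Wnt genes was not tested.

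Position was also compared, because some stretches of the genome shifted together in these samples. For each member the median change of up to 25 genes on each side was taken, over genes of at least median level. These medians ran from -0.36 to 0.60 for the members, and the middle 95% of all 8399 such medians on the array ran from -0.41 to 0.29. Fzd3, on chromosome 14, had the highest, 0.60, so that its rise by 1.15 exceeded that of its neighbours by 0.55. Wnt7a (0.36) and Wnt5b (0.26), both on chromosome 6, also had neighbours that were higher, and their own changes exceeded these by 0.88 and 0.84.

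Wnt6 and Wnt10a on chromosome 1 had lower neighbours (-0.36), against which their changes of 0.97 and 0.34 stood higher by 1.32 and 0.69. Fzd5, also on chromosome 1, had a neighbour median of -0.22 and lay below it by 1.12. For Wnt3, Wnt8a, Fzd2, Axin2, Lef1, Nkd1 and Sfrp1 the neighbours' median was between -0.06 and 0.10. Among the 28 called members, 1 (Fzd3) had neighbours that shifted by more than 50% of its own change. The part of such stretches in the changes was not tested.

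**Figure D4:**
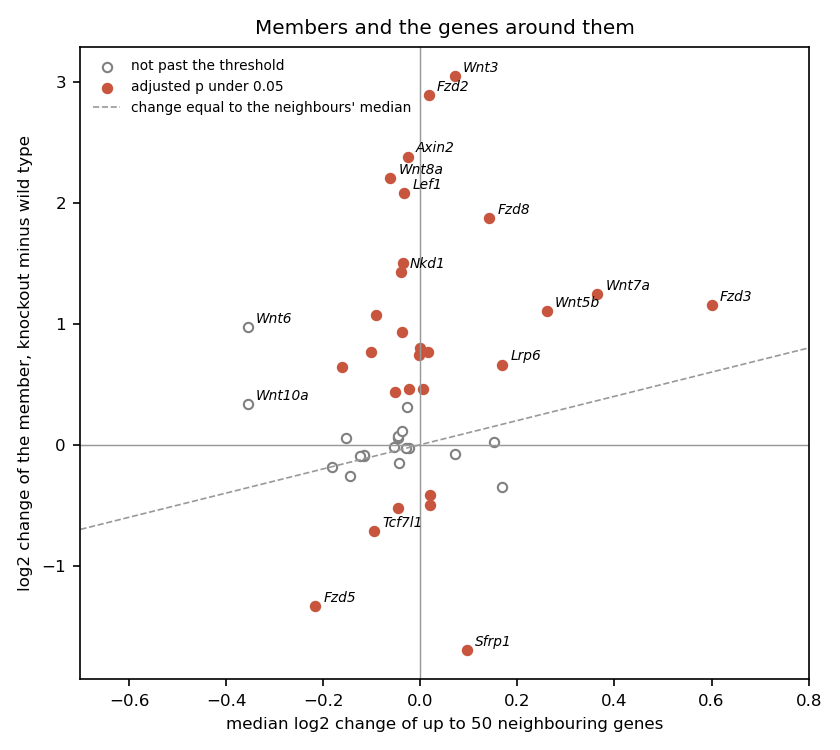
Log2 change (knockout minus wild type) of each measured member against the median log2 change of up to 50 genes around it; filled points passed an adjusted p of 0.05, open points did not, and the dashed line marks equal values. Fzd3 has the highest neighbour median, 0.60, while Wnt3, Fzd2, Axin2, Wnt8a and Lef1 rise far above neighbours near 0.

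Of the 28 members called, 18 kept their call with each of the 4 arrays left out in turn, among them all 14 with a change of at least 2-fold. The other 4 were Fzd1, Lrp6, Sfrp2 and Tcf7l1. By role, they were 4 of 9 called ligands, 8 of 10 receptors, 3 of 6 antagonists, and both Axin2 and the 2 called effectors.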

How the data were processed

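Each sample's total RNA was read on 1 Affymetrix Mouse Gene ST 1.1 array, per the labels' protocols. The authors deposited log2 values from RMA in the affy package (versions not stated), as named by the submitters' processing notes. RMA compresses small differences among dim probe sets. The 35556 probe sets were named through the platform annotation: 21218 have 1 gene symbol, 1881 several and 12457 are unnamed here. Probe sets with 1 symbol were used, the one with the highest mean per gene, which left 18820 genes and no filter on dim ones. Groups came from the sample titles.

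Knockout minus wild type was fitted with limma 3.58.1 in R 4.3.3 (lmFit, eBayes) over all genes and both groups, with 2 residual and 4.70 prior degrees of freedom. P-values are two-sided and adjusted by Benjamini-Hochberg over all genes, with a threshold of 0.05. Every member is described, with values by sample for called members that changed by at least 1 and for Axin2, Ctnnb1, Tcf7l1, Lef1 and Dkk1. Wnt3a, Wnt6, Wnt9b, Fzd7, Lrp5, Lrp6, Sfrp2, Nkd2 and Axin1 were also given by sample, chosen after their values were seen. Other pathway genes are named from a change of 1, at most 6 per list and direction. Porcn, Gbx2, Myc, Rnf43, Ccnd1, Notum, Klf2, Mycn, Nanog and Mixl1 were named after their values were seen. So were the stem cell, fibroblast and trophoblast markers given by name. The members and lists were chosen with earlier results of these data known. Neighbours were taken in the gene order of GRCm38.p6, since the array annotation used here names no build. The alternatives were a replicate block, other priors, filters, scalings, thresholds and probe set rules, and leaving out each sample.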

Additional observations from a re-analysis of the deposited data

How the results depend on the processing

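With 2 arrays per group, and signal over background unknown, changes of dim genes are poorly bounded. None of the 28 called members changed sign in any alternative. The replicate numbers do not establish pairs: within-group differences of same-numbered arrays correlated at 0.15 over all genes and 0.53 over the members, and the labels name no shared batch. With the replicate block 5093 genes passed (5071 without it), 23 members were higher and 7 lower; Wnt2 and Wnt6 gained calls. With array medians subtracted 8457 genes passed, 24.4% of them higher against 52.8% as deposited; the members gave 19 higher and 9 lower. With a 2-fold limit 1109 genes passed, with 12 members higher and 2 lower. Fitting only genes above the median level left 24 members, all with the same call as before, and 13 of these were higher. Leaving out 1 sample gave 2430 to 4350 genes, 15 to 24 members higher and 3 to 5 lower; a sample left alone in its group is assumed to vary like the other group. Changes that did not pass turned sign as follows, and the cause was not tested. With array medians subtracted they were -0.11 for Wnt1, -0.10 for Wnt10b, -0.15 for Wnt16, -0.052 for Fzd9 and -0.11 for Lrp5, and after quantile normalization -0.035 for Fzd9 and 0.032 for Ctnnb1. Over the samples left out in turn, they ran from -0.087 to 0.20 for Wnt1, -0.27 to 0.072 for Wnt8b, -0.19 to 0.035 for Wnt9b, -0.12 to 0.27 for Wnt10b, -0.055 to 0.29 for Fzd9, -0.027 to 0.14 for Lrp5, -0.088 to 0.030 for Nkd2, -0.17 to 0.12 for Apc and -0.080 to 0.037 for Ctnnb1.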
